A study of Drosophila melanogaster with 8 samples.

Results

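Off chromosome 3, the 9 genes fra, Alk, Fs, kek2, ana, rst, wun2, net and psq had less RNA in embryos homozygous for a zen allele than in heterozygotes. They were selected on measured values, the genotype difference at stage 6-7 and at stage 5, and picked out by symbol. They are 9 of 17468 gene IDs, of which 9360 had enough reads to be tested, all 9 included. Because the genotype difference chose them, it is described here without a test. RNA came from whole Drosophila melanogaster embryos in 4 groups of 2 replicate libraries. The groups were zen[7] homozygotes at stage 6-7 (gastrula), zen[7]/TM3, ftz-lacZ heterozygotes at stage 6-7, zen[7] homozygotes at stage 5 (cellular blastoderm), and the same heterozygotes at stage 5. Both genotypes carry the zen[7] chromosome, and no wild-type group is analysed here. Only the heterozygotes carry the TM3, ftz-lacZ chromosome, so its presence and the dose of zen cannot be told apart in any genotype difference. Homozygotes were recognised, per the labels' protocols, by the lack of a lacZ band, so a heterozygous pool may also hold embryos with TM3 in both copies. Each library was made from pooled embryos (N = 100 per the labels).

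The homeodomain factor Zen acts in the dorsal ectoderm, where high Dpp (BMP) signalling sets aside the amnioserosa, a squamous extraembryonic epithelium. Embryos without zen function do not form this tissue. Most of the 9 genes encode proteins of the cell surface or outside the cell. Alk and fra encode receptors, kek2 and rst encode adhesion-type transmembrane proteins, wun2 encodes a membrane enzyme, and Fs and ana encode secreted proteins. The other two, net and psq, encode transcription factors.

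Gene counts summed to 29669956 to 37770105 per library, and levels are given as CPM, gene counts scaled to a common library size after TMM, a correction for differences in library composition. Stages parted along principal component 1 (76% of variance). There the homozygous stage 5 replicate 1 lay at -56.22, beyond the other stage 5 libraries (-45.11 to -42.14), and the heterozygous stage 6-7 replicate 1 lay at 38.9, short of the other stage 6-7 libraries (48.81 to 51.12). Of 3280 genes that rose with stage, 71.1% were lower in homozygous stage 5 replicate 1 than in its replicate, and 74.7% were lower in heterozygous stage 6-7 replicate 1 than in its replicate. Cellularization genes (slam, nullo, bnk, halo, Sry-alpha) summed to 32.3 to 42.8 CPM at stage 6-7 and 2197 to 3152 CPM at stage 5, with Sry-alpha listed at 0 throughout. Of these genes edgeR called nullo lower in homozygotes at stage 5 (log2 -1.07, adjusted p = 0.0287), a call that ended on omitting any 1 stage 5 library (adjusted p = 0.0514 to 0.381), and its part in the stage 5 differences was not tested. RNA of zen itself was not lower in homozygotes (homozygous 56.4 and heterozygous 49.6 CPM at stage 6-7, homozygous 144 and heterozygous 109 CPM at stage 5), so it does not check the genotype labels.

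All 9 genes were lower in homozygotes at both stages, and at neither stage did a homozygous library reach the level of a heterozygous one. At stage 6-7 the median log2 difference, homozygous over heterozygous, was -0.95 over the 9 genes and 0.01 over all 9360 tested genes. At stage 5 these medians were -0.97 and 0.00. At an edgeR adjusted p under 0.05, 9 of 9 were called lower at stage 6-7 and 9 of 9 at stage 5, where 1.25% and 1.34% of all tested genes, and 0.583% and 0.972% of those off chromosome 3, were called lower. Both homozygous libraries lay below both heterozygous ones in 16.2% of tested genes at stage 6-7 and in 21.2% at stage 5. Since the list was drawn from this contrast, nothing is read from these counts. The count of members called at stage 6-7 was 3 without homozygous stage 6-7 replicate 2 and 5 without heterozygous stage 6-7 replicate 2. At stage 5 it was 5 without homozygous replicate 1, 5 without heterozygous replicate 1 and 3 without heterozygous replicate 2. The log2 differences themselves stayed below 0 in each of these.

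**Figure D1:**
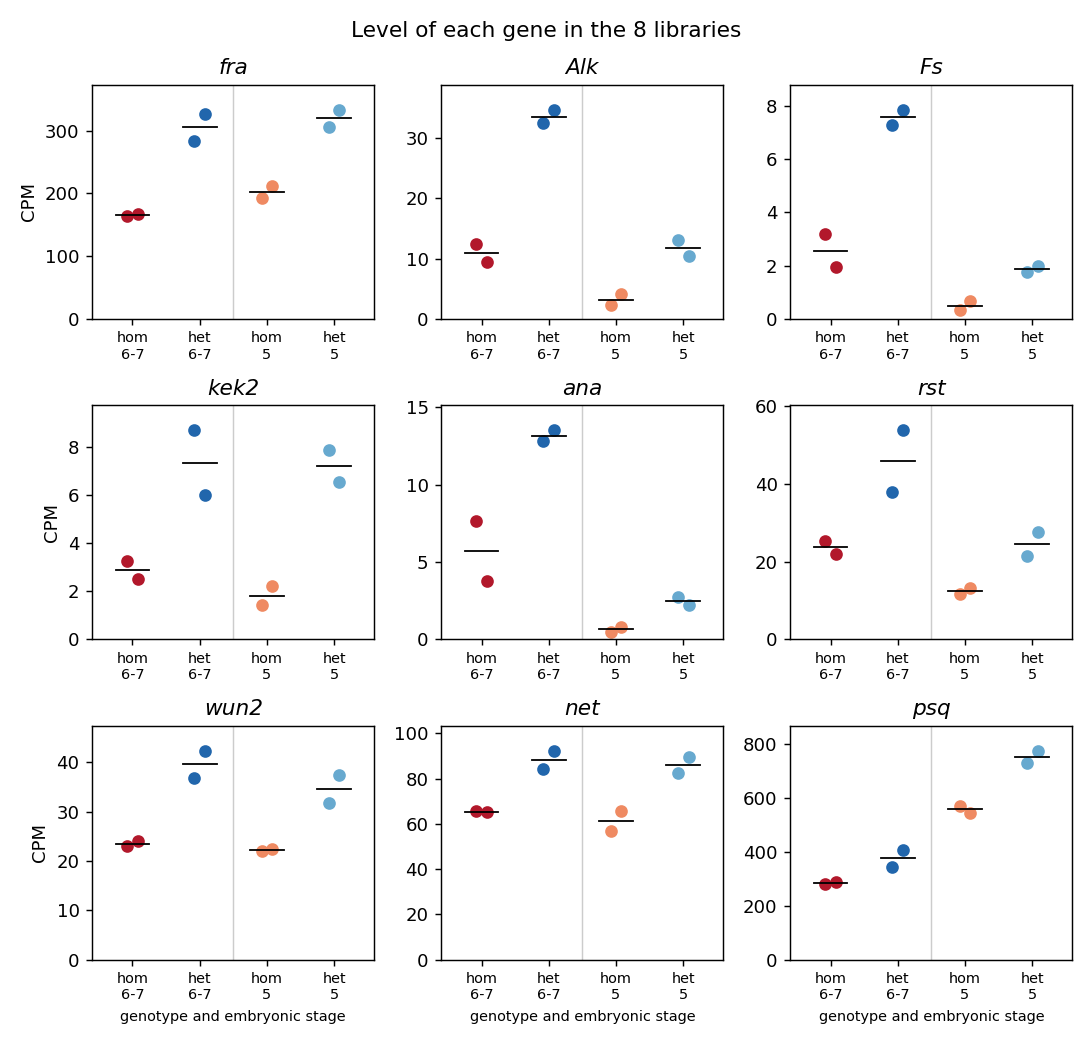
Level of each of the 9 genes in CPM (vertical axis, from 0) in the 8 libraries, by genotype (hom, homozygous; het, heterozygous) and embryonic stage, with points for the 2 libraries of a group and a line at their mean. In every panel both homozygous points lie below both heterozygous points of the same stage, while the stage pattern differs between genes.

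Alk (FBgn0040505, minus strand of arm 2R, 16625293 to 16640011 in build BDGP6.54, as for all positions given) encodes a receptor tyrosine kinase, known in the embryo for specifying visceral muscle founder cells on binding its ligand Jelly belly. At stage 6-7 it stood at 12.4 and 9.42 CPM in the homozygous libraries and at 32.5 and 34.7 CPM in the heterozygous ones. At stage 5 the homozygous libraries held 2.23 and 4.10 CPM, and the heterozygous ones 13.1 and 10.4 CPM. The homozygous level was thus 32.4% of the heterozygous level at stage 6-7 and 27.0% at stage 5, and homozygotes at stage 6-7 overlapped heterozygotes at stage 5. The log2 difference was -1.62 (SE 0.203) at stage 6-7 and -1.86 (SE 0.235) at stage 5.

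The receptor gene fra (FBgn0011592, plus strand of arm 2R, 12529053 to 12564184) encodes Frazzled, the fly homologue of the netrin receptor DCC, which guides commissural axons. Its homozygous libraries had 164 and 167 CPM at stage 6-7, against 284 and 327 CPM in heterozygotes. At stage 5 they had 192 and 212 CPM, against 306 and 333 CPM in heterozygotes. This was the second most abundant of the 9 transcripts, and the groups of the same stage stood well apart. The log2 difference was -0.88 (SE 0.0931) at stage 6-7 and -0.66 (SE 0.0927) at stage 5.

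Fs (FBgn0259878, minus strand of arm 2R, 15223560 to 15241589) encodes Follistatin, a secreted protein that binds activins and related ligands. At stage 6-7 it had 3.18 and 1.94 CPM in homozygotes, against 7.30 and 7.85 CPM in heterozygotes. At stage 5 it had 0.335 and 0.650 CPM in homozygotes, from 9 and 22 reads, against 1.77 and 1.99 CPM in heterozygotes, from 61 and 72 reads. The homozygous level was 33.8% of the heterozygous one at stage 6-7 and 26.2% at stage 5, on counts low enough that the stage 5 ratio is the least precise but 1 of the 9. The log2 difference was -1.56 (SE 0.255) at stage 6-7 and -1.89 (SE 0.353) at stage 5. The annotation places 821 bp of the exons of CG8079 antisense on those of Fs. Counting that ignores strand would treat such reads as ambiguous, and the strand setting is not given in the sources used here. A second antisense gene, asRNA:CR44370, shares 249 bp of exon with Fs. It averaged 0.482 ± 0.349 CPM in stage 6-7 homozygotes, against 1.25 ± 0.444 CPM in stage 6-7 heterozygotes (log2 -1.35, edgeR adjusted p = 0.373; SD, n = 2 each), with -0.77 on the log2 scale at stage 5 (edgeR adjusted p = 0.651). Within those 249 bp, out of 3561 bp of Fs exon, reads of Fs and of this gene cannot be told apart without strand. CG8079 itself averaged 25.7 ± 0.913 CPM in stage 6-7 homozygotes, beside 26.4 ± 0.919 CPM in stage 6-7 heterozygotes (SD, n = 2 each). For stage 5 the means were 19.5 ± 0.0410 CPM (homozygous) and 20.4 ± 0.742 CPM (heterozygous; SD, n = 2 each).

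The gene ana (FBgn0011746, plus strand of arm 2R, 9062295 to 9077554) encodes Anachronism, a secreted glycoprotein of glia that keeps larval neuroblasts quiescent. Homozygotes had 7.61 and 3.76 CPM at stage 6-7, where heterozygotes had 12.8 and 13.5 CPM. At stage 5 homozygotes had 0.483 and 0.797 CPM, from 13 and 27 reads, and heterozygotes had 2.73 and 2.19 CPM. The homozygous stage 6-7 libraries differed from each other more than the heterozygous ones did, and without replicate 1 of that group the log2 difference was -1.81, without replicate 2 it was -0.80. With both it was -1.20 (SE 0.264) at stage 6-7, and it was -1.90 (SE 0.387) at stage 5. A stretch of 73 bp of its exons is shared with the antisense transcript asRNA:CR45924, which averaged at most 0.441 CPM in any group.

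The Kekkon family gene kek2 (FBgn0015400, plus strand of arm 2L, 11581937 to 11626883) encodes a transmembrane protein with leucine-rich repeats and an immunoglobulin domain. It had 3.24 and 2.49 CPM in homozygotes at stage 6-7, against 8.68 and 6.00 CPM in heterozygotes. At stage 5 it had 1.41 and 2.21 CPM in homozygotes, against 7.86 and 6.53 CPM in heterozygotes. Heterozygotes were alike at both stages, and homozygotes stood at 39.0% of them at stage 6-7 and at 25.2% at stage 5. The log2 difference was -1.35 (SE 0.242) at stage 6-7 and -1.97 (SE 0.259) at stage 5, the deepest of the 9 at that stage.

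The adhesion gene rst (FBgn0003285, minus strand of arm X, 2950399 to 2973834) encodes Roughest, an immunoglobulin-superfamily protein that acts with its paralogue Kirre in cell recognition, for example when muscles fuse and when cells sort in the eye. At stage 6-7 it had 25.3 and 22.0 CPM in the homozygous libraries, against 38.0 and 53.8 CPM in the heterozygous ones. At stage 5 the homozygous libraries had 11.7 and 13.3 CPM, against 21.3 and 27.5 CPM in the heterozygous ones. Homozygotes were at 51.6% of heterozygotes at stage 6-7 and 51.0% at stage 5, with log2 differences of -0.95 (SE 0.167) and -0.97 (SE 0.175). As for Alk, homozygotes at stage 6-7 overlapped heterozygotes at stage 5. The gene lies within the span of kirre, on the other strand, without shared exons, and kirre averaged at most 1.26 CPM in any group.

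The enzyme gene wun2 (FBgn0041087, plus strand of arm 2R, 9414342 to 9417846) encodes a lipid phosphate phosphatase that, in somatic cells, repels migrating germ cells. Homozygotes had 23.0 and 24.0 CPM at stage 6-7, against 36.8 and 42.3 CPM in heterozygotes. At stage 5 they had 21.9 and 22.4 CPM, against 31.7 and 37.5 CPM in heterozygotes. Replicates of the homozygotes agreed closely, at 59.4% of the heterozygous level at stage 6-7 and 64.1% at stage 5. The log2 difference was -0.75 (SE 0.117) at stage 6-7 and -0.64 (SE 0.118) at stage 5.

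The 2 transcription factor genes had the smallest differences. The bHLH gene net (FBgn0002931, minus strand of arm 2L, 82421 to 87387) is known for repressing vein fate in the wing. Homozygous libraries held 65.6 and 65.2 CPM of it at stage 6-7, and heterozygous ones held 84.2 and 92.3 CPM. Stage 5 values were 56.7 and 65.5 CPM (homozygous) and 82.7 and 89.7 CPM (heterozygous), giving log2 differences of -0.43 (SE 0.100) at stage 6-7 and -0.50 (SE 0.101) at stage 5. The gene psq (FBgn0263102, plus strand of arm 2R, 10557888 to 10617280) encodes Pipsqueak, a BTB-domain protein that binds GAGA-type sequences and has 15 annotated transcripts. Homozygous libraries had 282 and 287 CPM of it at stage 6-7, with 345 and 407 CPM in the heterozygous ones. At stage 5 the homozygous libraries had 569 and 545 CPM, with 728 and 774 CPM in the heterozygous ones. Its homozygous level was 75.7% of the heterozygous one at stage 6-7 and 74.1% at stage 5, with log2 differences of -0.40 (SE 0.0905) and -0.43 (SE 0.0903), the shallowest of the 9 at each stage.

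**Figure D2:**
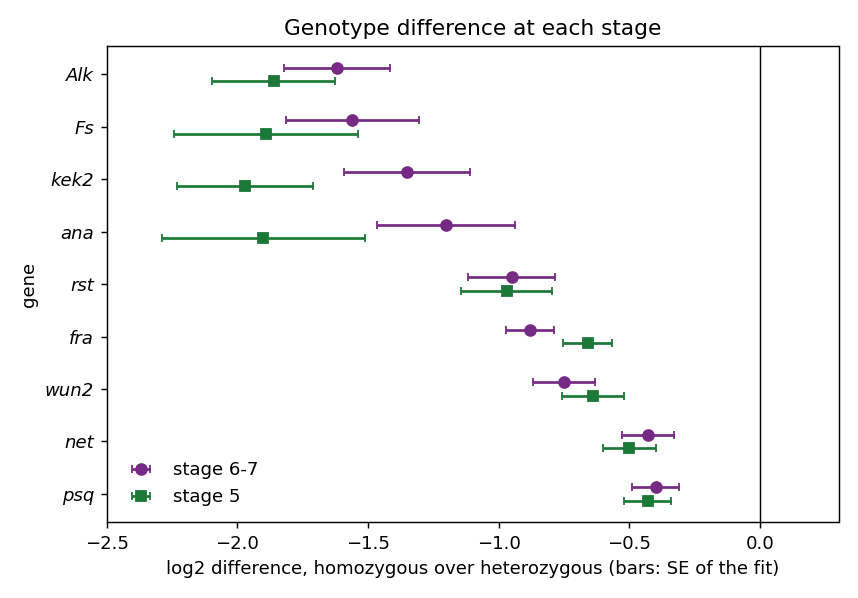
Log2 difference, homozygous over heterozygous (horizontal axis), of each gene at stage 6-7 (circles) and stage 5 (squares), with bars for 1 standard error of the edgeR fit. Points run from -1.62 (Alk) to -0.40 (psq) at stage 6-7 and from -1.97 (kek2) to -0.43 (psq) at stage 5.

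The genes differ in depth. Alk, Fs, kek2 and ana had log2 differences of -1.20 or deeper at both stages, rst lay near -1 (-0.95 and -0.97), fra and wun2 lay between -0.64 and -0.88, and net and psq between -0.40 and -0.50. The change of the genotype difference with stage, stage 6-7 minus stage 5 on the log2 scale, was 0.70 (SE 0.476) for ana, 0.61 (SE 0.356) for kek2, 0.33 (SE 0.439) for Fs and 0.24 (SE 0.309) for Alk. For rst it was 0.01 (SE 0.239), for psq 0.03 (SE 0.128) and for net 0.06 (SE 0.142). It was -0.11 (SE 0.166) for wun2 and -0.22 (SE 0.131) for fra. These values combine the contrasts that chose the genes and are given without a test.

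Averaged over genotypes, the log2 difference of stage 6-7 over stage 5 was above 0 for 7 of the 9 genes. Its median over all tested genes was 0.01, and kek2, wun2 and net among the 7 did not pass the test given below. At stage 5 the homozygous replicate 1, which stands apart on the first component, was lower than replicate 2 for 8 of the 9 genes. Of all tested genes 50.3% were lower in it, with 71.1% of those that rose with stage and 33.1% of those that fell. Its level was 0.515 times that of replicate 2 for Fs, 0.543 for Alk, 0.606 for ana and 0.638 for kek2, and 1.04 times for psq. Without this library the stage 5 differences were -1.70 for kek2, -1.62 for ana, -1.54 for Fs, -1.52 for Alk, -0.89 for rst, -0.63 for wun2, -0.60 for fra, -0.47 for psq and -0.40 for net. The heterozygous stage 6-7 replicate 1 was lower than replicate 2 for 8 of the 9 genes, all but kek2. The share was 57.7% of tested genes, with 74.7% of those that rose with stage and 46.5% of those that fell, in this replicate 1. Without it the stage 6-7 differences ran from -1.67 (Alk) to -0.50 (net).

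The stage difference, averaged over both genotypes, was tested. It is orthogonal to the genotype contrast at either stage only where the groups have equal spread. At stage 5, Fs had 9 and 22 reads in homozygotes and 61 and 72 in heterozygotes. There ana had 13 and 27 reads in homozygotes and 94 and 79 in heterozygotes. For genes with such unequal counts the selection may have shifted the stage difference, and their adjusted p-values carry that limit. Of the 9 genes, 4 were higher and 2 lower at stage 6-7 than at stage 5 (edgeR, adjusted p under 0.05 with Benjamini-Hochberg over 9360 genes), and 35.0% of tested genes were called higher and 33.2% lower. The share of members called, 6 of 9, is near the 68.3% called among all genes. The median log2 stage difference was 0.34 over the 9 genes and 0.01 over all tested genes.

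The rising genes were ana, with a log2 stage difference of 2.77 (SE 0.229, edgeR adjusted p = 2.04e-07), a 6.81-fold rise, and Fs, with 2.17 (SE 0.215, adjusted p = 5.7e-07), a 4.51-fold rise. Alk rose 3.11-fold (log2 1.64, SE 0.155, adjusted p = 1e-06) and rst 1.89-fold (log2 0.92, SE 0.121, adjusted p = 1.56e-05). Among tested genes ana stood at the 99.2nd percentile of this difference, Fs at the 98.1st, Alk at the 95.7th and rst at the 83.8th. In the heterozygotes alone the log2 stage difference was 2.42 for ana, 2.01 for Fs, 1.52 for Alk and 0.91 for rst, beside 3.12, 2.34, 1.76 and 0.92 in the homozygotes. These single-genotype values share libraries with the contrasts that chose the genes and were not tested.

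The gene psq fell 1.98-fold with stage (log2 -0.98, SE 0.0644, edgeR adjusted p = 8.41e-09) and the values within each genotype were close to it (1.96-fold lower in homozygotes, untested). The stage difference of fra was -0.18 (SE 0.0653, edgeR adjusted p = 0.0276). That call was lost without homozygous stage 6-7 replicate 1 (adjusted p = 0.0848), heterozygous stage 6-7 replicate 1 (0.114), homozygous stage 5 replicate 2 (0.0636) or heterozygous stage 5 replicate 2 (0.0846), and its adjusted p ran from 0.00728 to 0.997 over 17 alternatives, the last with library totals alone, and was 0.102 with a replicate block within stage. The values of kek2 (log2 0.34, SE 0.178, adjusted p = 0.107), wun2 (0.14, SE 0.0828, adjusted p = 0.152) and net (0.07, SE 0.0710, adjusted p = 0.43) did not pass by edgeR. Without heterozygous stage 6-7 replicate 2 or homozygous stage 5 replicate 2, kek2 passed (adjusted p = 0.0448 and 0.0329), at log2 0.45 and 0.53, and it passed with a replicate block within stage (0.0257), at log2 0.58. All 3 passed with library totals alone in place of TMM, a scaling that moves the median stage difference of all genes to 0.18.

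**Figure D3:**
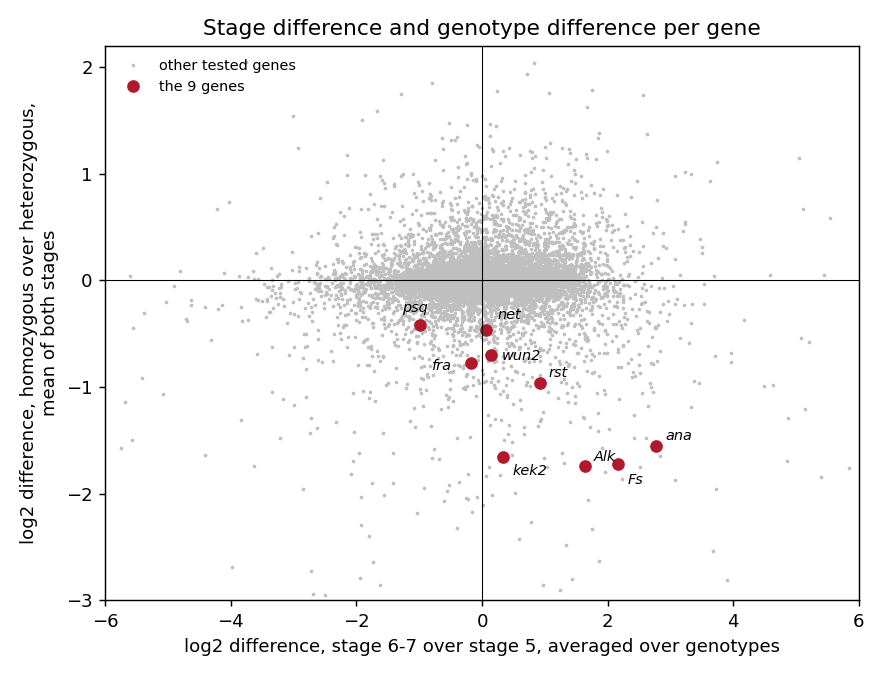
Log2 stage difference, stage 6-7 over stage 5 averaged over genotypes (horizontal axis), against the log2 genotype difference, homozygous over heterozygous, averaged over the stages (vertical axis), for the 9 genes (large points) and the other tested genes (small points; 28 lie outside the plotted range). The 9 genes share a low position on the vertical axis, which chose them, and spread along the horizontal axis from psq (-0.98) to ana (2.77).

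The order of the 4 group levels therefore took 3 forms. For Alk, Fs, ana and rst the heterozygotes at stage 6-7 were highest and the homozygotes at stage 5 lowest, and the homozygotes at stage 6-7 overlapped the heterozygotes at stage 5 for all of these but ana. For fra, kek2, wun2 and net the heterozygotes of both stages overlapped and stood above all homozygous libraries. For psq all 4 groups were apart, with the heterozygotes at stage 5 highest and the homozygotes at stage 6-7 lowest. Per kilobase of annotated exon, the mean over the 8 libraries was 64.7 CPM for psq, 39.3 for fra, 33.8 for net, 13.5 for wun2 and 4.26 for rst. It was 2.10 for ana, 1.53 for Alk, 0.878 for Fs and 0.692 for kek2, so the 4 genes with the deepest genotype differences had the lowest levels per length. A gene with few reads needs a deeper difference to be called (stage 5 SE 0.353 for Fs, 0.0903 for psq). This order therefore cannot be told apart from the selection. Exon lengths came from an annotation that may differ from the one used in counting.

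Several markers of the amnioserosa were also lower in homozygotes. Of 14 amnioserosa genes, edgeR called 8 lower at stage 6-7 and 7 at stage 5, and 0 higher at either stage (median log2 -0.76 and -0.82). Of all tested genes it called 1.25% and 1.34% lower. This list was chosen with earlier results of these data known. Doc1, Doc3, Kr, zen and zen2 were called at neither stage. At stage 6-7 and stage 5 the log2 difference was 0.11 and -0.03 for Kr, 0.18 and 0.40 for zen, and -0.48 and 0.23 for zen2. On chromosome 3 lie C15, Doc1, Doc2, Doc3, pnr, Dtg, zen and zen2. At stage 6-7 the 14 genes summed to 1096 to 1161 CPM in homozygotes and 1771 to 1914 CPM in heterozygotes. At stage 5 they summed to 1048 to 1203 CPM in homozygotes and 1467 to 1603 CPM in heterozygotes, and none was at 0. Their part in the differences of the 9 genes was not tested. In RNA of whole embryos, fewer cells of a type and less RNA per cell cannot be told apart. Of 5 mesoderm, 6 neurectoderm and 5 endoderm or gut markers, edgeR called 0 at either stage, and of the pole cell markers measured (pgc, gcl, ovo) also 0. The smallest p among these markers was that of hkb, an endoderm regulator, with a log2 difference of -0.44 at stage 6-7 (edgeR adjusted p = 0.102). It was called there in 7 of 17 alternatives. Where no single library was left out, its adjusted p ran from 0.00475 (edgeR, no filter on low counts) to 0.133 (limma-voom). The log2 difference of hkb at stage 5 was 0.04. The mesoderm gene Mef2 had -0.87 at stage 5 (edgeR adjusted p = 0.19, called in 1 of 18 alternatives) and -0.01 at stage 6-7.

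Of 5142 tested genes off chromosome 3, 14 were called lower at both stages, and the 9 are among them. These contrasts chose the 9, so nothing is read from their presence or from their ranks given below. The other 5 of the 14 are peb, tup, ush, Ance and dap, which encodes an inhibitor of cyclin-dependent kinases. All but dap are on the amnioserosa list, which was chosen with earlier results of these data known. The tup gene had log2 genotype differences of -2.06 at stage 6-7 and -1.30 at stage 5, and dap of -1.79 and -0.84. Among the 30 genes off chromosome 3 called lower at stage 6-7, Alk ranked 8th by depth and psq 30th. Among the 50 at stage 5, kek2 ranked 5th, ana 6th, Fs 7th, Alk 8th and psq 46th.

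Among partner genes of the same pathways and families, 1 passed the genotype test. Of 61 partners 58 matched an ID and 53 were tested, and edgeR called 1 higher and 0 lower at stage 6-7 and 0 at stage 5. Over all tested genes edgeR called 1.77% at stage 6-7 (0.524% higher) and 1.62% at stage 5 (0.288% higher). An unadjusted p under 0.05 was found for 5 partners at stage 6-7 (9.43%, beside 7.54% of all tested genes) and for 9 at stage 5 (17.0%, beside 12.3%). At stage 5 DESeq2 called 4 (7.55%, beside 2.67%) and limma-voom 2 (3.77%, beside 1.35%). The median log2 difference of the partners was -0.00 at stage 6-7 and -0.10 at stage 5.

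The Alk ligand gene jeb did not pass at either stage. Its homozygous libraries had 2.37 and 2.88 CPM and its heterozygous ones 2.07 and 2.41 CPM at stage 6-7 (log2 0.23, edgeR adjusted p = 1). For stage 5 the homozygous values were 0.855 and 1.03 CPM, against 1.86 and 1.38 CPM in heterozygotes (log2 -0.77, edgeR adjusted p = 0.285). The netrin genes NetA and NetB, whose products bind Frazzled, had log2 differences of 0.24 and 0.15 at stage 6-7 and -0.01 and -0.44 at stage 5 (edgeR adjusted p from 0.672 to 1). Among the other genes of the netrin list, trio and Abl had log2 differences of -0.27 and -0.33 at stage 5 (edgeR adjusted p = 0.2 and 0.223). The signalling gene csw, a tyrosine phosphatase that acts downstream of receptor tyrosine kinases, had a log2 difference of -1.23 at stage 5 (edgeR adjusted p = 0.0836, and between 6.91e-08 and 0.463 over 18 alternatives). Of the activin pathway genes tested beside Fs (ligands Actbeta, daw, myo and mav, receptors babo, put and wit, and the transducer Smox), 0 of 8 were called at either stage, with medians of 0.03 and -0.00.

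The Kekkon and EGFR list held the 1 call. At stage 6-7 the homozygous libraries held 2.29 and 3.02 CPM of kek6 (arm 3R), and the heterozygous ones 0.634 and 0.927 CPM (log2 1.76, SE 0.359, edgeR adjusted p = 0.0177). This call was lost without homozygous stage 6-7 replicate 2 (adjusted p = 0.187), heterozygous replicate 1 (0.169) or heterozygous replicate 2 (0.0899). At stage 5 kek6 had a log2 difference of -0.62 (edgeR adjusted p = 0.515). The paralogue kek1 on arm 2L, an inhibitor of the EGF receptor, had 12.5 and 6.75 CPM in the homozygous stage 6-7 libraries and 22.6 and 14.8 CPM in the heterozygous ones (log2 -0.95, edgeR adjusted p = 0.273). There 4 of 18 alternatives called it (adjusted p = 3.65e-06 to 0.802 over all 18): no filter on low counts (0.00115), a replicate block (0.00306), a block within stage (3.65e-06) and omission of homozygous stage 6-7 replicate 1 (0.00435). With that library omitted the log2 difference was -1.47, without homozygous replicate 2 it was -0.59 and without heterozygous replicate 1 it was -0.62. At stage 5 it had 11.9 and 11.8 CPM in the homozygous libraries, against 31.7 and 26.5 CPM in the heterozygous ones (log2 -1.30, SE 0.285, edgeR adjusted p = 0.0813), and 11 of 18 alternatives called it there. Leaving out any of the 4 stage 5 libraries, those compared, left kek1 uncalled there (adjusted p = 0.127 to 0.375), whereas leaving out any stage 6-7 library brought a call (0.00133 to 0.0321), as did a replicate block (0.000256). For kek5 on X the log2 differences were -0.05 and -0.10, and Egfr itself had 0.17 and 0.00. The feedback inhibitor genes aos and sty had -0.35 and -0.15 at stage 6-7 and -0.41 and -0.55 at stage 5, where edgeR gave adjusted p = 0.114 for aos and 0.144 for sty.

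**Figure D4:**
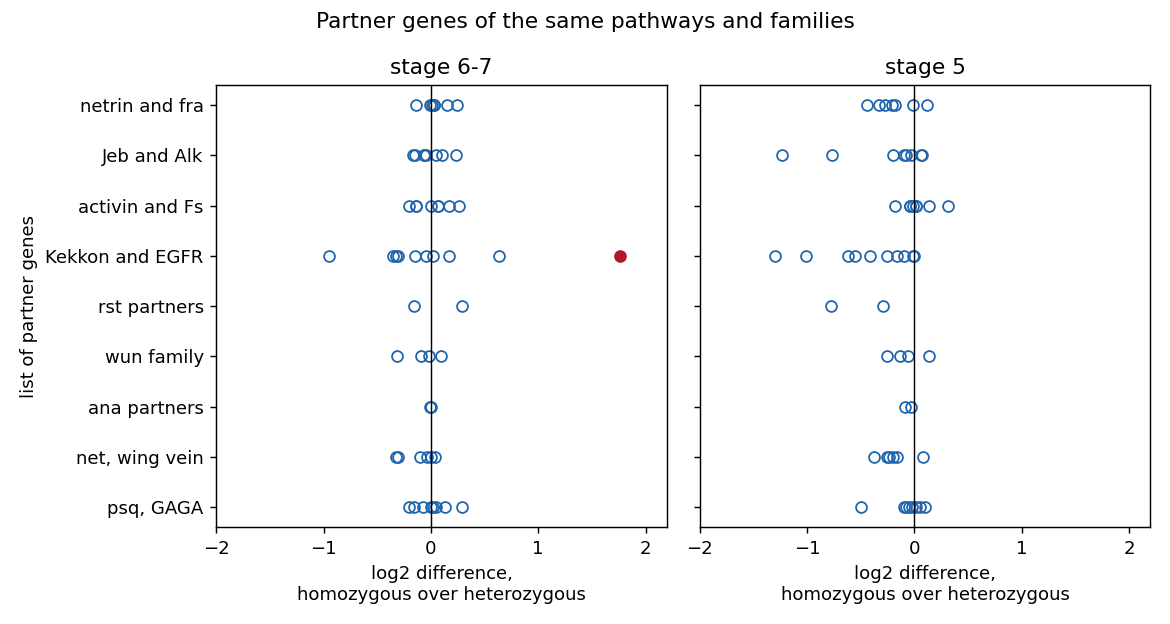
Log2 difference, homozygous over heterozygous (horizontal axis), of the tested partner genes in each list (rows) at stage 6-7 (left) and stage 5 (right), with open points for genes not called and a filled point for a gene called by edgeR. The filled point is kek6 at stage 6-7 (1.76), and the list medians lie between -0.54 and 0.07.

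The remaining lists held 0 calls. The wun2 paralogue wun, which lies 879 bp away on arm 2R and also encodes a lipid phosphate phosphatase, averaged 16.2 ± 0.267 CPM in stage 6-7 homozygotes, against 20.1 ± 1.52 CPM in stage 6-7 heterozygotes (log2 -0.32, edgeR adjusted p = 0.389; SD, n = 2 each). For stage 5 the means were 25.4 ± 2.05 CPM (homozygous) and 27.7 ± 2.50 CPM (heterozygous), with log2 -0.13 (edgeR adjusted p = 0.672; SD, n = 2 each). The rst partners kirre and sns had log2 differences of -0.16 and 0.29 at stage 6-7 and -0.29 and -0.78 at stage 5. Of the vein genes listed with net, rho and vn had -0.31 and -0.33 at stage 6-7, and of the GAGA-associated genes listed with psq, Trl had -0.20 and lolal 0.00, and bab2 had -0.50 at stage 5 (edgeR adjusted p = 0.215).

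Flanking genes were read in the same fit, a choice made after the first values were seen. Genes that overlap a member, such as kirre at rst, were not counted as flanking. Of the 18 nearest tested genes on either side of the 9 (40 to 161451 bp away), edgeR called 1 lower at stage 6-7 and 1 lower at stage 5, beside 1.25% and 1.34% of all tested genes, and 0 higher. An unadjusted p under 0.05 was found for 4 at stage 6-7 (22.2%, beside 7.54% of all tested genes) and for 2 at stage 5 (11.1%, beside 12.3%). The gene w, which encodes an eye pigment transporter and lies 153933 bp from rst, was lower at stage 6-7 (log2 -1.09, edgeR adjusted p = 0.0342), averaging 1.92 ± 0.343 CPM in homozygotes, against 4.09 ± 0.325 CPM in heterozygotes (SD, n = 2 each). Omitting any 1 stage 6-7 library ended that call (adjusted p = 0.0765 to 0.41), as did testing genes off chromosome 3 alone (0.0998) or omitting heterozygous stage 5 replicate 1 (0.0679) or 2 (0.0633). The gene gprs, 1232 bp from Alk, was lower at stage 5, with 0.149 and 0.207 CPM in the homozygous libraries and 1.42 and 1.69 CPM in the heterozygous ones (log2 -3.08, SE 0.352, edgeR adjusted p = 0.000378, and at most 0.00639 over 17 alternatives). Its homozygous value rests on 4 and 7 reads. At stage 6-7 gprs had 3.56 and 3.61 CPM in the homozygous libraries and 5.37 and 5.91 CPM in the heterozygous ones (log2 -0.65, edgeR adjusted p = 0.203). The difference between the stages was 2.43 on the log2 scale (SE 0.422) and did not pass (edgeR adjusted p = 0.0536). The tested genes that overlap a member did not pass at either stage. At stage 5 their log2 differences ran from -1.47 (CG30056, on the strand of fra, edgeR adjusted p = 0.0759) to 0.03 (asRNA:CR45924). At stage 6-7 they ran from -1.94 (asRNA:CR45924, edgeR adjusted p = 0.513) to -0.04 (CG8079).

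Genes whose level over the 8 libraries was most like that of each member were sought among 6170 tested genes of at least 5 CPM, by Pearson r of log2 CPM. The r of the 2 nearest genes per member ran from 0.939 to 0.992, over 8 libraries that share 4 group means, so it describes the group pattern more than single libraries. Nearest to Alk were Doc2 and bnl (r = 0.984 each), and nearest to Fs were FBgn0250876, an ID without a symbol here (0.992), and bnl (0.986). Those nearest to wun2 were tup (0.982) and HGTX (0.970), to net Ptp69D (0.981) and HGTX (0.945), to kek2 CYLD (0.954) and Ptp69D (0.939), and to fra CG5274 (0.962) and Sarm (0.961). For rst they were tmod (0.987) and pav (0.982), for ana Tsf2 and sas (0.988 each), and for psq Btk (0.992) and MYPT-75D (0.991). An r over 0.9 was reached by 906 genes for psq and by 4 for kek2. Of these 18 places, some held by the same gene, 14 went to genes on chromosome 3, and FBgn0250876 was not placed. Of the candidates 43.3% lie on chromosome 3. The group pattern includes the genotype difference that chose the members, so likeness favours genes that are also lower in homozygotes. Of the genes edgeR called lower, 30 of 117 at stage 6-7 and 50 of 125 at stage 5 lie off chromosome 3. The 14 places therefore cannot be weighed against 43.3%, and nothing is read from them.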

How the data were processed

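Whole-number counts of reads per gene were deposited by the authors, 1 table per library. The tools named are STAR and HTSeq, per the submitters' processing notes. Build, annotation and strand setting: not given in the sources used here. Lines that name no gene (12.89% to 18.22% of reads) were left out. Symbols and positions came from Ensembl 115 (BDGP6.54), where 17188 of 17468 IDs matched.

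Counts were filtered (filterByExpr, minimum count 10), scaled with TMM and fitted over all 8 libraries with edgeR 4.0.16 in R 4.3.3 (glmQLFit, robust; glmQLFTest), with 1 mean per group. Adjusted p-values are Benjamini-Hochberg over 9360 genes. Alternatives used DESeq2 1.42.0, limma 3.58.1 (voom), other scalings and filters, a replicate term, and each library left out, where the lone library of a group borrows the spread of the rest. Code for the fit was checked on simulated counts.

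The 9 genes and the partner and marker lists were chosen with earlier results of these data known. Named genes were the 9, at most 4 per list by smallest p, and the 2 nearest in pattern per member. Any other gene in the text (the targeted gene, overlapping and flanking genes, those listed by role or lower at both stages) was added after its values were seen. Labels do not tie replicates to separate crosses, so the p-values reflect only the spread of these pools, which may be technical.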

Additional observations from a re-analysis of the deposited data

How the results depend on the processing

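The genotype log2 differences of the 9 genes stayed below 0 under every alternative run (18, or 17 where a filter removed the gene). Calls on them fell to 5 of 7 at stage 6-7 with at least 10 CPM in 2 libraries, a filter that removes Fs and kek2, and to 6 of 9 (ana, net and psq lost) among genes off chromosome 3 alone. At stage 5 limma-voom called 7 of 9 (Fs and ana lost). With single libraries left out they numbered 3 to 9 at stage 6-7 and 3 to 9 at stage 5, and stage calls numbered 5 to 7. Over the other alternatives stage calls numbered 4 to 8, with no change of direction. Of the 53 partners, 1 was called at stage 6-7, against 2 with no filter on low counts, 2 with a replicate block, 2 with a block within stage and 2 from the libraries of the stage alone, and 0 at 10 CPM or among genes off chromosome 3 alone, which omits kek6. At stage 5, 0 were called, against 1 with library totals alone, 6 without the filter, 4 with DESeq2, 2 with limma-voom, 3 with a replicate block, 5 with a block within stage and 1 with the libraries of the stage alone. Leaving out single libraries gave 0 to 2 at stage 6-7 and 0 to 6 at stage 5. The cause was not tested. Over all genes, 117 lower calls at stage 6-7 became 17 (genes off chromosome 3 alone) to 185 (no filter), and 125 at stage 5 became 32 to 381, the last without homozygous stage 5 replicate 2. Replicate differences of the groups correlated at -0.062 to 0.043, so replicate numbers gave no sign of pairing the samples. A replicate block still changed the lower calls over all genes, from 117 to 136 at stage 6-7 and from 125 to 210 at stage 5. With a block within stage they were 158 and 285. With a replicate block 9 members were called at each stage, from which nothing is read, since this contrast chose them.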

Other observations

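The 9 genes tend to be long. Their median annotated span was 18.0 kb, against 2.92 kb for 4845 tested protein-coding genes off chromosome 3. The spans were 59.4 kb for psq, 44.9 kb for kek2, 35.1 kb for fra, 23.4 kb for rst, 18.0 kb for Fs, 15.3 kb for ana and 14.7 kb for Alk, all between the 87.1st and 97.8th percentile of those genes. At 4.97 kb and 3.50 kb, net and wun2 stood at the 67.2nd and 56.8th percentile. By arm, 6 of the 9 lie on 2R, 2 on 2L and 1 on X. The shares of tested genes by arm were not taken, so nothing is read from these counts.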
